A study of Mus musculus with 12 samples.

Results

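A set of 7 mouse genes was examined for regions of open chromatin that Kupffer cells of control-diet mice had and Kupffer cells of NASH-diet mice lacked: Ldoc1, Ptchd4, Slc7a14, Sash1, Frmd4b, Zcchc2 and Poc1a. They are 7 of 21887 protein-coding genes, and the 6 peak lists of the series held 522 peaks at them, of 334073 peaks in all. A peak belonged to a gene if its centre lay inside it, or if no gene held the centre and this gene's nearer end was the closest of any protein-coding gene within 100 kb. The genes were selected on measured values, namely many control-diet peaks that no peak of the NASH-diet list overlapped. Counted within the best-scored 50% of the control-diet list, each member had at least 4 such peaks. In all, 15 genes reached that number, 8 of which are not members, with 6 such peaks at Ldoc1 and 4 at each of the other members, while 28 genes stood just below it with 3. The loss of peaks from the NASH-diet Kupffer cell list is therefore the basis of the choice, and its size is given as a description.

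Chromatin was profiled by ATAC-seq, in which a transposase cuts and tags accessible DNA, in 12 libraries of cells sorted from C57BL/6J mice. F4/80-Hi Tim4-Pos Kupffer cells came from mice on the control diet (KC-H) and from mice on the NASH diet (KC-N), which models nonalcoholic steatohepatitis. The remaining 4 groups were all from mice on the NASH diet: F4/80-Hi Tim4-Neg Kupffer cells (KN-RM), Cd11b-Hi Ly6CLo recruited liver macrophages (Ly6CLo-RM), Cd11b-Hi Ly6CHi recruited liver macrophages (Ly6CHi-RM), and Ly6C-Hi blood monocytes (Blood-Ly6CHi-NASH). KC-H is thus the only group without the diet, and no blood or recruited cells of control-diet mice were analysed here; the mice's ages and the make-up of the diet were not stated. Both libraries of a group were combined by the authors into 1 list, so no comparison has a replicate error, a test or a p-value, and the 95% Wilson intervals cover counting error only.

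The lists differed in length, from 34293 peaks in KN-RM to 69616 in the blood list, with 63501 in KC-H and 50550 in KC-N. Labels were set against marker genes by their numbers of peaks. In KC-H the 10 Kupffer cell markers held 118 peaks, while KC-N had 57, KN-RM 36 and the other 3 lists 21 to 35. The 8 monocyte markers held 33, 22 and 14 in these F4/80-Hi lists, in the same order, against 30 to 54 in the other 3. Of the 33 in KC-H, 18 were at Plac8. Timd4, the gene of the sorted protein Tim4, had 17 KC-H peaks but 1 KC-N peak. Among the Kupffer cell markers, Vsig4 held 5 peaks in KC-H and 6 in blood, and Cd163 held 7 and 8. At the rest of these markers KC-H had as many peaks as blood or more. The 4 markers of liver endothelium held 23, 19 and 9 peaks in the F4/80-Hi lists and 9 to 11 elsewhere; 19, 13 and 7 of these were at Stab2, which held 1 in each of the other lists. Hepatocyte and stellate cell markers held 0 to 3 peaks in every liver list, and 13 and 4 in blood, where 11 of the 13 were at Alb. The part of these differences in the results below was not tested.

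Kupffer cells are the resident macrophages of the liver sinusoids, and signals of their niche maintain the regulatory regions on which their gene expression rests. Open regions far from promoters are often enhancers, of which several can serve 1 gene and which tend to be specific to a cell type, whereas the promoters of widely used genes are open in most cells. The 7 genes are not a pathway. Ldoc1 encodes a small leucine zipper protein derived from a retrotransposon, Ptchd4 a patched-domain membrane protein that restrains hedgehog signalling, and Slc7a14 a lysosomal member of the cationic amino acid transporter branch. Sash1 encodes a scaffold protein with SAM and SH3 domains, Frmd4b a FERM-domain scaffold that binds the ARF exchange factor cytohesin, Zcchc2 a CCHC zinc finger protein, and Poc1a a WD40 protein of the centriole.

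Whether a promoter was open differed between the loci, so 5 promoters are shown: the 250 bases before the start site, from RefSeq (GRCm38.p6, the assembly also called mm10), 5′ to 3′ on the gene's strand, with CG dinucleotides in capitals. Those of Ldoc1 (chrX:61709361-61709610, plus strand) and Slc7a14 (chr3:31310320-31310569, minus strand) had no peak in any of the 6 lists. Those of Sash1 (chr10:8886071-8886320, minus strand), Zcchc2 (chr1:105990156-105990405, plus strand) and Poc1a (chr9:106280811-106281060, plus strand) had a peak in all 6.
Ldoc1: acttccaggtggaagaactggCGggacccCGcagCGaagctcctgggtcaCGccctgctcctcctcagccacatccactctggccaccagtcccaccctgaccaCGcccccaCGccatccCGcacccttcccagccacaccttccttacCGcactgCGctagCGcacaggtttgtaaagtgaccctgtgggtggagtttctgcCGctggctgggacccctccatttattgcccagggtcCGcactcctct
Slc7a14: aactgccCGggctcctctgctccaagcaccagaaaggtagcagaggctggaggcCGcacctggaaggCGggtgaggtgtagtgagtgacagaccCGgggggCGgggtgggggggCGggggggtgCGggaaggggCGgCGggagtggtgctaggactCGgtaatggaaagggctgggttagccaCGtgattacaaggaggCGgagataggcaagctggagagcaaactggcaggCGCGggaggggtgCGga
Sash1: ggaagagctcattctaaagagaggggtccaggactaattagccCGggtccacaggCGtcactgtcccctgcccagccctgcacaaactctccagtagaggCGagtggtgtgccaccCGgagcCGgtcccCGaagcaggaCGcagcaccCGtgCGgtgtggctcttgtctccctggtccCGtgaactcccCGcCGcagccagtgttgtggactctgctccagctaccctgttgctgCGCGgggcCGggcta
Zcchc2: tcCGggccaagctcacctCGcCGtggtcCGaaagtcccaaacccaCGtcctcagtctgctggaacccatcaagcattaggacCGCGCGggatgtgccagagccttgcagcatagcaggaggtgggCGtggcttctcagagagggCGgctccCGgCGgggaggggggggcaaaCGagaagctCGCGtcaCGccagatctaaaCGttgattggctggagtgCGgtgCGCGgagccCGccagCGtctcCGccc
Poc1a: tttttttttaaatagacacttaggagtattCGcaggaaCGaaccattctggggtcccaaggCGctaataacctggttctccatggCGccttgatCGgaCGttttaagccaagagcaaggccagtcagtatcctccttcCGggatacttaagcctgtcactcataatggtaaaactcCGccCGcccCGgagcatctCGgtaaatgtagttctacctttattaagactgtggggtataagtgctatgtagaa

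The promoters of Ldoc1 and Slc7a14 had CG counts within the range of the 3 with a peak in every list: there are 12 CG dinucleotides at Ldoc1 and 15 at Slc7a14, and 15 at Sash1, 23 at Zcchc2 and 11 at Poc1a, against a median of 6 over 32851 RefSeq promoters. The 7 genes have 10 annotated start sites. Of these, 3 had a peak within the promoter window (the 250 bases before the start and 50 after) in all 6 lists, 1 had it in 5 lists and 6 had none in any list. The start with 5 was the one of Frmd4b at chr6:97487821-97488070, where the KN-RM list lacked the peak; its other 2 starts and both of Ptchd4 had none, with CG counts of 15 and 4 at Frmd4b and of 4 and 24 at Ptchd4. AP-1 is the FOS and JUN factor family and ETS factors include the macrophage regulator PU.1. The AP-1 letters TGANTCA, read on both strands, stood in 1 of the 10 stretches of 250 bases, at Frmd4b, and in 6.75% of all promoters. The ETS letters AGGAAG stood in 4 of the 10, at Ldoc1 and all 3 starts of Frmd4b, and in 29.5% of all promoters.

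Of 173 KC-H peaks at the 7 loci, 90 had no KC-N peak overlapping them by 1 bp (52.0%, 44.6% to 59.3%), where the whole KC-H list had 31.2%. Because the genes were chosen for this, nothing is read from the excess. Such peaks are called lost here, which says only that KC-H lists them and KC-N does not, and the other 83 are called kept. In the opposite direction, 7 of 90 KC-N peaks at these loci had no KC-H peak, against 13.5% of the whole KC-N list. Choosing genes with many KC-H peaks makes an overlap with KC-H more likely, so nothing is read from this lower share. These 7 were 3 at Sash1, 2 at Frmd4b and 2 at Zcchc2, and all ranked outside the best-scored 50% of KC-N.

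**Figure D1:**
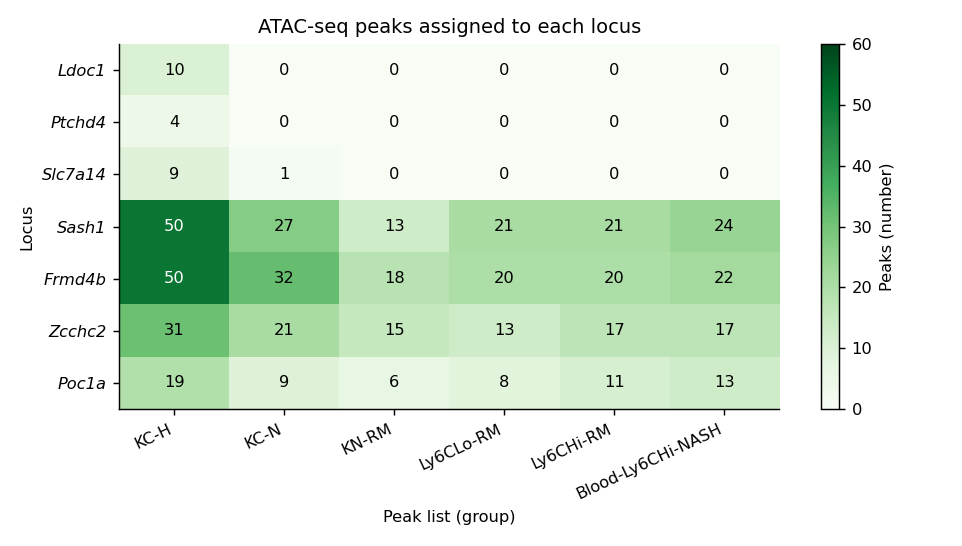
Number of ATAC-seq peaks (cells, colour scale in peaks) assigned to each of the 7 loci (rows) in each of the 6 lists (columns). KC-H held the most peaks at every locus, and at Ldoc1, Ptchd4 and Slc7a14 the other 5 lists together held 1 peak.

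At 3 loci the peaks of KC-H were nearly the only ones in the series. Ldoc1 held 10 peaks in KC-H and 0 in each of the other 5 lists. Ptchd4 held 4 in KC-H and 0 in each of the others. For Slc7a14, KC-H had 9, KC-N had 1, and KN-RM, Ly6CLo-RM, Ly6CHi-RM and blood had 0. These 3 genes are described together because the other lists held next to nothing there, so the absence of all their 22 lost peaks from the 4 further lists follows from the grouping.

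Ldoc1 (chrX:61709611-61710950) is a gene of 1.34 kb without a near neighbour: the closest protein-coding genes, Gm4988 and 4933402E13Rik, were 417 kb and 572 kb away and had no peak in any list. None of its 10 KC-H peaks was in the gene. On the side before the start, 7 lay from 14.6 to 56.3 kb away, and beyond the end 3 lay together 11.7 to 12.4 kb away. In order along the chromosome their scores, the whole numbers given by the authors' pipeline, were 30, 50, 37, 44, 92, 114 and 24, then 67, 54 and 66, where the median of KC-H is 48. The best was chrX:61680453-61680653, 29.1 kb from the gene, with a score of 114 that ranks in the best 13.1% of KC-H and a normalized tag count of 53.8, where the median KC-H peak has 17.5. The cluster is therefore made of strong and weak peaks alike, with a pair of strong ones side by side near its middle. No other list had a peak anywhere from position 60404870 to 68678583 of the X chromosome, a stretch of 8.27 Mb in which KC-H alone had 11 peaks, the 10 of Ldoc1 and 1 more.

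Ptchd4 (chr17:42315851-42507742) had its 4 KC-H peaks in the distal part of the gene, between 42436059 and 42480426, the nearest of them 120 kb from the start sites. Their scores were 60, 99, 61 and 51, all in the best-scored 50% of the list. The nearest KC-N centres were 396356 to 440523 bp away. A stretch of 1.85 Mb around the gene held no peak of the other 5 lists, and besides these 4 peaks KC-H had 1 there, near the neighbouring opsin gene Opn5. The best peak of Ptchd4, chr17:42449197-42449397, had a tag count of 41.8 and ranked in the best 17.4% of KC-H.

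Slc7a14 (chr3:31202854-31310567, on the minus strand) had 3 KC-H peaks inside the gene and 6 before its start, 32.2 to 98.5 kb upstream. The upstream ones included the only peak of the locus that KC-N also had, chr3:31393975-31394175, with a score of 123 in KC-H. The lost peak with the best score, 97, was its neighbour at chr3:31390038-31390238, whose centre was 4013 bp from the KC-N centre. The cluster did not end at the 100 kb limit: a further 5 KC-H peaks, between 31414033 and 31446682, were beyond it and in no other list, and with a window of 1000 kb Slc7a14 had 13 lost peaks in place of 8. Cldn11, the claudin gene 38.5 kb from the other end of Slc7a14, held 4 peaks in Ly6CHi-RM and 3 in each other list, with 0 lost. On that side the stretch without peaks of the other lists ended at position 31146126.

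**Figure D2:**
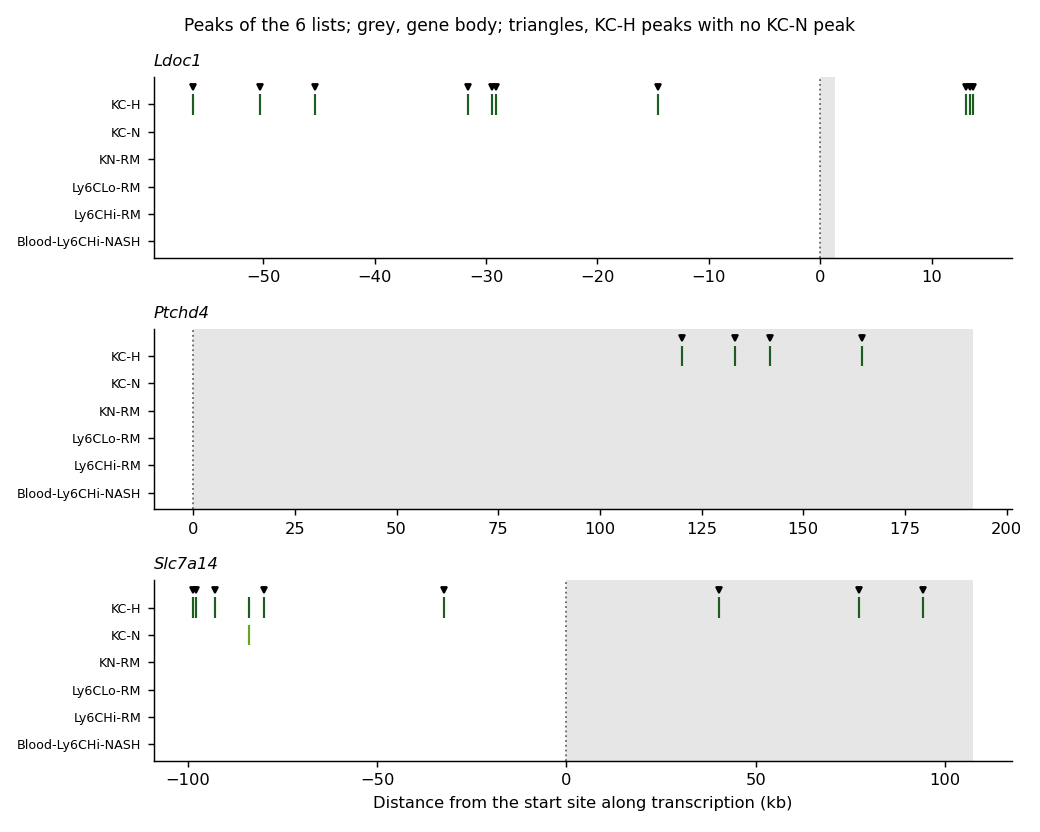
Peak centres (vertical ticks) of the 6 lists at Ldoc1, Ptchd4 and Slc7a14 by distance from the annotated start site along transcription, in kb; the gene body is grey and triangles mark KC-H peaks with no KC-N peak. The single tick outside the KC-H row is the KC-N peak before Slc7a14, and no list has a tick at a start site.

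The other 4 loci were open in every list and lost a part of their peaks. Together they lost 68 of 150 KC-H peaks (45.3%, 37.6% to 53.3%), beside 31.2% of the whole list, for which the genes were chosen. The share was 52.0% at Sash1 (38.5% to 65.2%) and 52.6% at Poc1a (31.7% to 72.7%). It was 40.0% at Frmd4b (27.6% to 53.8%) and 38.7% at Zcchc2 (23.7% to 56.2%), and both of these intervals included 31.2%. In the order KC-H, KC-N, KN-RM, Ly6CLo-RM, Ly6CHi-RM and blood, Sash1 held 50, 27, 13, 21, 21 and 24 peaks. Frmd4b held 50, 32, 18, 20, 20 and 22. Zcchc2 held 31, 21, 15, 13, 17 and 17. Poc1a held 19, 9, 6, 8, 11 and 13. KC-H had the most at all 4. KN-RM had the fewest at Sash1, Frmd4b and Poc1a and Ly6CLo-RM at Zcchc2, but KN-RM was also the shortest list.

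Sash1 (chr10:8722217-8945608) lost 26 of its 50 KC-H peaks, all inside the gene. The promoter illustrates the partial loss. Its peak over the start site, chr10:8885942-8886142 with a score of 97 in KC-H, was in all 6 lists. The adjoining peak, chr10:8886261-8886461 with a score of 94, over the first bases of the promoter as printed above, was the best-scored lost peak of the gene. KC-N and KN-RM lacked it, with the nearest KC-N centre 317 bp off, while Ly6CLo-RM, Ly6CHi-RM and blood had it. Away from the promoter, 7 lost peaks followed each other without a kept one between 8736005 and 8757262, in the distal part of the gene, and 4 of them were in no other list. Among these, chr10:8747847-8748047 had a score of 88, in the best 21.6% of KC-H, and its nearest KC-N centre was 11436 bp away. The 4 kept peaks of Sash1 with scores of 121 to 141 were in all 6 lists.

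Frmd4b (chr6:97286867-97617657) lost 20 of 50, again all inside the gene. Its lost peak of best score, chr6:97478936-97479136 with 111, stood beside the kept peak of best score, chr6:97479340-97479540 with 182, which was in all 6 lists, and the nearest KC-N centre to the lost one was 405 bp away. The lost region thus adjoined one that all 6 lists held. Losses further from kept peaks lay at both sides of the central cluster of kept peaks. In the last part of the gene, 7 lost peaks in a row spanned 102 kb from 97293278 to 97394791, and 6 of these were in no other list. KC-N was not empty there: its peak chr6:97294265-97294465 lay within the run without overlapping a KC-H peak. The centre of that peak was 209 bp from the centre of 1 of the 7 and 987 bp from that of another. On the other side, the long non-coding RNA gene Gm46970, which overlaps Frmd4b, held 5 lost peaks and 1 kept one, and 4 of the lost ones were in KC-H alone.

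Zcchc2 (chr1:105990390-106034077) lost 12 of 31, and its kept and lost peaks were partly on different sides. All 19 kept peaks lay between 105921946 and 105999281, around and before the start. The 5 KC-H peaks beyond, from 106019953 to 106099445, were all lost, and 3 of these 5 were in blood or a Cd11b-Hi list. The last, chr1:106099245-106099445, 65.3 kb past the gene, had the best score among the lost ones, 86, and was in KC-H alone. Before the start, the overlapping long non-coding RNA gene Gm7160 held 5 lost and 4 kept peaks. Of these 5, 1, chr1:105989706-105989906, was the only lost peak of all 7 loci that KN-RM had. The promoter peak, chr1:105990337-105990537, had a score of 306 in KC-H and was in all 6 lists.

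Poc1a (chr9:106279443-106350522) lost 10 of 19, of which 8 were in the gene. The best of them, chr9:106296845-106297045 with a score of 83, was also in Ly6CLo-RM, Ly6CHi-RM and blood, so KC-N and KN-RM were the lists without it. Of the 10, 5 were in the blood list and 4 were in no other list. The 3 KC-H peaks from 106280465 to 106281425, around the start site, were kept. The 2 past the end of the gene, on the side of the phosphatase gene Dusp7, were lost and in no other list.

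**Figure D3:**
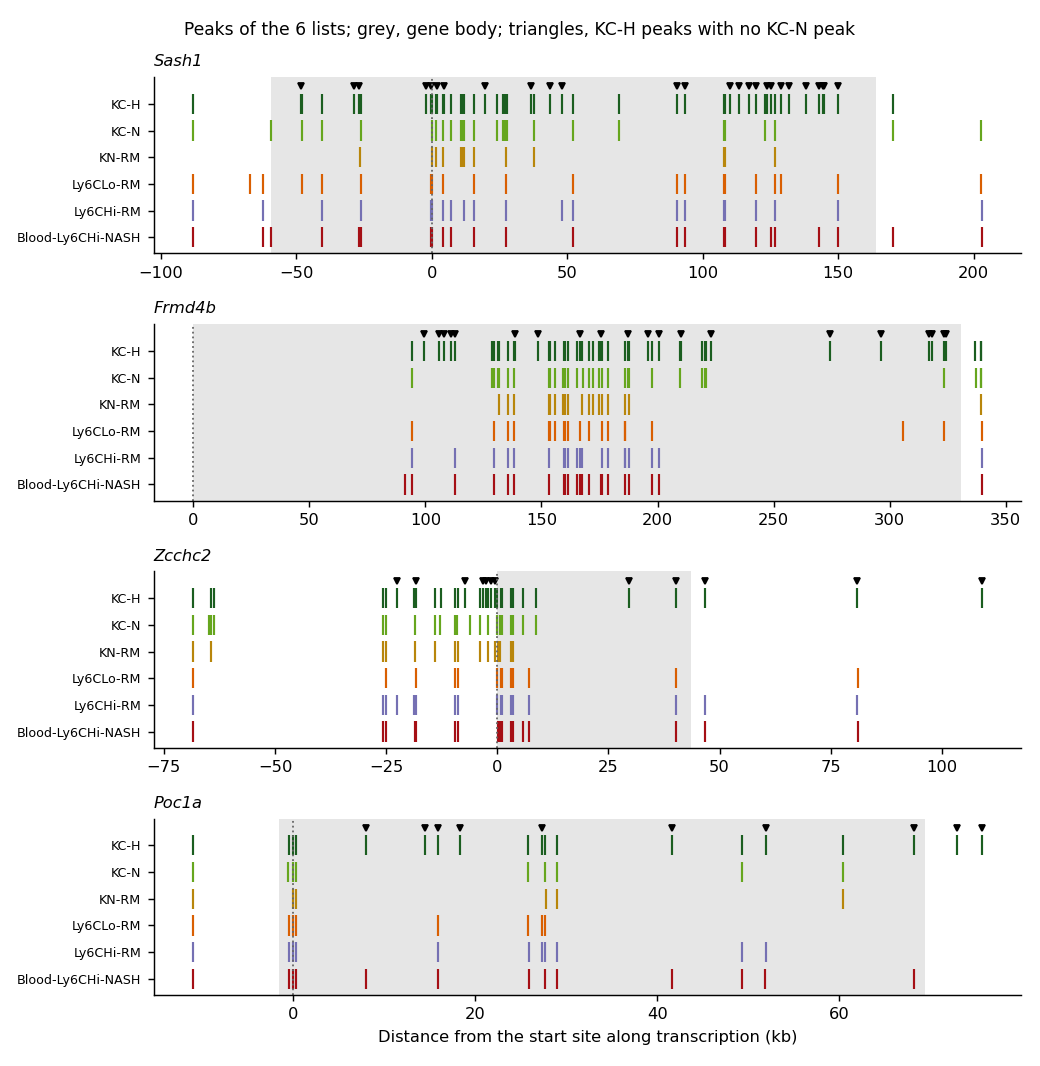
Peak centres (vertical ticks) of the 6 lists at Sash1, Frmd4b, Zcchc2 and Poc1a by distance from the first annotated start site along transcription, in kb; the gene body is grey and triangles mark KC-H peaks with no KC-N peak. Kept peaks cluster at the starts of Sash1, Zcchc2 and Poc1a and in the middle of Frmd4b, while lost ones also extend to parts with few or no KC-N peaks.

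How strong the lost peaks were was described by their score in KC-H, from the contrast that chose the genes. The median score was 36.0 for the 90 lost and 63.0 for the 83 kept peaks. The KC-H list was divided by rank into 4 classes of 25% each. In the best-scored 25%, 10 of 42 peaks at the loci were lost (23.8%, 13.5% to 38.5%), beside 1.30% of the whole list. In the second class 20 of 48 were lost, beside 10.1%, in the third 17 of 33, beside 40.9%, and in the last 43 of 50, beside 72.4%. At the loci as in the whole list, the share grew from the best-scored class to the last.

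**Figure D4:**
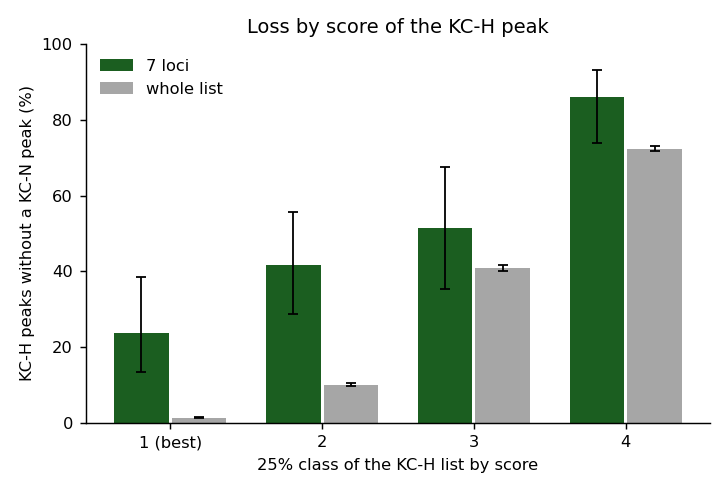
Share of KC-H peaks with no KC-N peak (percent, bars, with 95% Wilson intervals) by 25% class of the KC-H list ranked by score, for the 7 loci and for the whole list. The share grows from 23.8% to 86.0% at the loci and from 1.30% to 72.4% in the whole list; the genes were chosen for their lost peaks.

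Of the 90 lost peaks, 63 had their centre inside the gene (70.0%, 59.9% to 78.5%), beside 64.6% of all lost KC-H peaks that have a gene. No KC-N centre lay within 1000 bp of 72 of them (80.0%, 70.6% to 87.0%), beside 65.6% in the whole list. Without Ldoc1, Ptchd4 and Slc7a14 it was 50 of 68 (73.5%, 62.0% to 82.6%). This distance comes from the contrast that chose the genes and is a description. The other 18 of the 90 had a KC-N centre within that distance, 6 each at Sash1 and Frmd4b, 5 at Zcchc2 and 1 at Poc1a. A promoter window of some RefSeq gene was overlapped by 1 of the 90, at Sash1 (1.11%, 0.196% to 6.03%), beside 6.00% of all lost KC-H peaks, and by 4 of the 83 kept ones (4.82%, 1.89% to 11.7%), beside 19.9% of all kept peaks.

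The other 4 lists, which the stated basis for choosing the genes does not name, tell where else the lost regions were open. Why other genes that reached the same number of lost peaks are not members was not stated. KN-RM had 1 of the 90 (1.11%, 0.196% to 6.03%), Ly6CLo-RM had 13 (14.4%, 8.64% to 23.2%), Ly6CHi-RM 17 (18.9%, 12.1% to 28.2%) and blood 21 (23.3%, 15.8% to 33.1%). Over all lost KC-H peaks the shares were 6.01%, 27.6%, 35.3% and 41.7%, so the order of the 4 lists was the same and each share was lower at the loci. The whole-list value lay inside the interval for KN-RM, at its upper end, and above the intervals for the other 3. That order was not found with every list held to 34293 peaks, where KN-RM had 4, Ly6CLo-RM 7, Ly6CHi-RM 4 and blood 4 of 45 lost peaks. With the other lists uncut and only the better-scored 50% of KC-H followed, they had 1, 7, 7 and 7 of 30. Both settings change which KC-H peaks are followed, so the part of list length was not tested. In no other list were 63 of the 90 (70.0%, 59.9% to 78.5%), beside 49.9%. Without Ldoc1, Ptchd4 and Slc7a14, 41 of 68 lost peaks were in no other list (60.3%, 48.4% to 71.1%), and that interval and those for the 4 lists included the values of all lost peaks. Peaks of 1 locus share their surroundings, so the intervals are narrower than the spread between genes would make them.

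Of the 27 lost peaks that were open elsewhere, 26 were in a Cd11b-Hi or the blood list (96.3%, 81.7% to 99.3%), beside 97.2% over the whole list, a value inside that interval. Ly6CLo-RM, Ly6CHi-RM and blood together had 10 of the 90 (11.1%, 6.15% to 19.3%), beside 21.0%. Without Ldoc1, Ptchd4 and Slc7a14 it was 10 of 68 (14.7%, 8.19% to 25.0%), an interval that included 21.0%. Of these 10, 5 were at Sash1, 3 at Zcchc2 and 1 each at Frmd4b and Poc1a. A further 7 were in blood alone, 3 at Sash1, 3 at Poc1a and 1 at Frmd4b. Ly6CHi-RM and blood shared 4 more, 2 at Frmd4b and 1 each at Zcchc2 and Poc1a. Of the remaining 6, Ly6CHi-RM alone had 2, Ly6CLo-RM alone 2, KN-RM alone 1, and both Cd11b-Hi lists together 1. All 21 in blood were thus listed for Kupffer cells of control-diet mice and for monocytes of NASH-diet mice, but for neither KC-N nor KN-RM.

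Kept peaks were found less widely as well. Of the 83, KN-RM had 51 (61.4%, 50.7% to 71.2%), Ly6CLo-RM 43 (51.8%, 41.2% to 62.2%), Ly6CHi-RM 48 (57.8%, 47.1% to 67.9%) and blood 50 (60.2%, 49.5% to 70.1%). All kept KC-H peaks were found in these lists at 70.0%, 77.1%, 81.2% and 80.6%. The value for KN-RM was inside the interval of the loci and the 3 others were above theirs. In all 4 lists were 30 of the 83, at Frmd4b 10, at Sash1 8, at Zcchc2 8 and at Poc1a 4, beside 57.8% of all kept peaks. Neither blood nor a Cd11b-Hi list had 29 of the 83 (34.9%, 25.6% to 45.7%), beside 12.8%. Of these 29, 12 were in KN-RM, beside 1916 of 5597 such peaks in the whole list. These 29 were listed for F4/80-Hi cells alone.

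**Figure D5:**
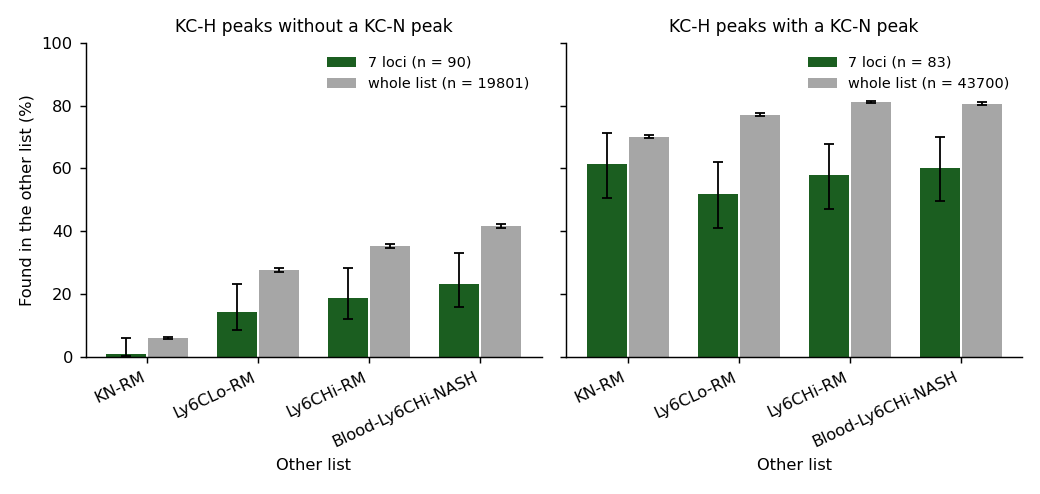
Share of KC-H peaks found in each of the 4 further lists (percent, bars, with 95% Wilson intervals), on the left for those without a KC-N peak and on the right for those with one, at the 7 loci and in the whole KC-H list. At the loci the lost peaks range from 1.11% in KN-RM to 23.3% in blood and the kept ones from 51.8% to 61.4%.

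Read from the other lists, all 52 KN-RM peaks at the loci overlapped a KC-H peak, where 7.29% of its whole list did not. Ly6CLo-RM had 6 of 62 peaks without a KC-H peak (28.4% in its whole list), Ly6CHi-RM 4 of 69 (30.9%) and blood 5 of 76 (37.5%). The genes were chosen for many KC-H peaks, which makes an overlap with KC-H more likely there, so nothing is read from these low shares.

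Paralogues and neighbours of the 7 genes were counted for comparison. The 17 paralogues held 125 KC-H peaks, of which 33 were lost (26.4%), near the 31.2% of the whole list. Frmd4a, the paralogue of Frmd4b, had 41 KC-H and 31 KC-N peaks with 13 lost, and Poc1b had 29 and 25 with 5 lost. Ptch1, the hedgehog receptor gene, held 9 and 4 with 5 lost, and Samsn1, a relative of Sash1 in haematopoietic cells, held 12 and 15 with 0 lost. Slc7a2, a cationic amino acid transporter gene, held 6 peaks in each Tim4-Pos list with 1 lost, 0 in KN-RM and Ly6CLo-RM, 1 in Ly6CHi-RM and 2 in blood. Ptchd3, another patched-domain gene, had 7 KC-H and 4 KC-N peaks with 3 lost, and Slc7a1 had 6 and 6 with 1 lost. Of the paralogues with 3 KC-H peaks each, Zcchc14 lost 2, Peg10 and Sash3 lost 1 each and Ptchd1 lost 0. The Rtl8 genes, retrotransposon-derived like Ldoc1, held 1 KC-H peak each, and it was lost at Rtl8c.

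The 14 neighbouring protein-coding genes held 95 KC-H peaks and lost 33 (34.7%). Beside Frmd4b, the transcription factor gene Mitf had 23 KC-H and 14 KC-N peaks with 9 lost, but 18 in Ly6CLo-RM, 21 in Ly6CHi-RM and 24 in blood. Beside Zcchc2, Phlpp1 held 22 and 16 with 7 lost, and Tnfrsf11a, the gene of the RANK receptor, held 10 and 12 with 0 lost. Beside Poc1a, Alas1, which encodes the first enzyme of heme synthesis, held 7 and 3 with 3 lost, and Dusp7 held 10 and 5 with 5 lost. Beside Sash1, Ust held 14 and 11 with 6 lost, and Samd5 held 3 and 1 with 2 lost. Mmut, beside Ptchd4, held 2 and 1 with 0 lost, and Kcnmb2, beside Slc7a14, and Lmod3, beside Frmd4b, held 0 KC-H peaks. Both neighbours of Poc1a thus had lost peaks, and 1 of those of Zcchc2 had none.

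The lists were not of equal length, and KC-H was longer than KC-N. In a further setting, only the 34293 best-scored peaks of each list were used. Of 94 KC-H peaks at the loci, 45 were then lost (47.9%), beside 18.7% of the reduced list. The genes were chosen for well-scored KC-H peaks without a KC-N peak, so nothing is read from this excess. Of the 45, 34 were in no other list, and no share of the reduced list is given beside this count. KC-N was cut as well, so a KC-H peak also counted as lost where its KC-N peak fell below the cut. Ptchd4 then still had 4 lost peaks, Ldoc1 and Slc7a14 had 6 each, and Sash1 had 8 in place of 26. The 6 of Slc7a14 included chr3:31393975-31394175, which is kept in the full lists and whose KC-N peak ranked 40359.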

How the data were processed

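The authors deposited 1 ATAC-seq peak list per group, made from both of its 2 libraries and named for the irreproducible discovery rate, per the labels. Bowtie2, HOMER and DESeq2, and the builds mm10 and GRCm38, are named in the submitters' processing notes without roles or versions. It was not stated how reads were filtered, whether they were shifted for the transposase cut, or how deeply each library was sequenced. Each row holds a position, a signal (the authors' normalized tag count of the deposited peak) and a whole-number score, the authors' own values, which were used here to rank and describe peaks within 1 list only. The count of reads behind a peak is unknown.

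Overlap means 1 bp or more. Gene bounds, start sites and promoters came from RefSeq tables of GRCm38.p6, and all 7 symbols matched; exons and introns were not used here, so positions are given only as inside or outside the gene. Lists have no replicates, so there is no test. Alternatives changed the overlap, list length, score threshold, gene window and assignment. The naming rule took the 7 genes, their flanking protein-coding genes, paralogues with 3 or more KC-H peaks and the best-scored lost peak of each locus; other peaks, Rtl8 genes and stretches were named after their values were seen. The members and lists were chosen with earlier results of these data known. Python 3.11.15, numpy 2.4.6, pandas 2.3.3 and matplotlib 3.10.9 were used, and the overlap, assignment and interval functions were tested on simulated lists.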

Additional observations from a re-analysis of the deposited data

How the results depend on the processing

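Of 69 counts recomputed under 9 alternatives, 45 were within 1.5 times the reported one. Those that were not were as follows, in the order lost peaks at the loci, KC-N peaks without a KC-H peak, lost peaks found in KN-RM, Ly6CLo-RM, Ly6CHi-RM and blood, lost peaks in no other list, and lost peaks of the whole KC-H list. Equal-length lists gave 45 lost, 4, 7, 4 and 4 found in the 4 lists, 34 in no other list and 6400 in the whole list. The better-scored 50% of every list gave 52 lost, 3 of KC-N, 7 in Ly6CLo-RM, 5 in Ly6CHi-RM, 7 in blood and 9327 in the whole list. The better-scored 50% of the followed list alone gave 30 lost, 0 of KC-N, 7, 7 and 7 in Ly6CLo-RM, Ly6CHi-RM and blood, 20 in no other list and 1805 in the whole list. Fewer peaks enter these 3 settings by construction. Where every list was cut, KC-N was cut too, so a KC-H peak whose KC-N peak fell below the cut counted as lost. Absence taken as no centre within 1000 bp gave 3 of KC-N, 0 in KN-RM and 12992 in the whole list, and an overlap of 50% gave 2 in KN-RM. Windows of 20 and 1000 kb gave 76 and 95 lost peaks. The order of the 4 lists, with blood the highest, was not found with equal-length lists, where Ly6CLo-RM had the most, nor in either setting of the better-scored 50%, where blood and Ly6CLo-RM had 7 each. No paired analysis was possible because the libraries of a group share 1 list. The depth per library is unknown, so a region missing from a list may be closed or below that list's threshold.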

Other observations

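Complete absence from the other 5 lists, as at Ldoc1 and Ptchd4, was found at 15 of the 5426 genes with 4 or more KC-H peaks; these genes were named after their values were seen. Ldoc1 had the most peaks among them with 10, followed by Adamtsl1 with 9 and by Klf15, a Krüppel-like transcription factor gene, Klhl32 and Marchf11 with 6 each. Agtr2, Spats2l and Ugt2b1, the last a glucuronosyltransferase gene, had 5 each. Of all KC-H peaks, 15.5% were in no other list. Ranked by the number of such peaks, Sash1 with 16 of 50 and Frmd4b with 15 of 50 stood near the top. Rxra, a nuclear receptor gene, had 28 of 47, Rgl1 26 of 45 and Mroh2a 23 of 32. This rank does not allow for how many KC-H peaks a gene has. Ldoc1 had 10 of 10, Slc7a14 8 of 9, Zcchc2 6 of 31, Poc1a 4 of 19 and Ptchd4 4 of 4. The number 4 was reached or passed by 496 genes.

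The other 8 genes with 4 or more lost peaks in the best-scored 50% of KC-H were Pde10a and Timd4 with 5 and Ccny, Gse1, Lhfpl3, Marchf11, Sfi1 and Trib1 with 4. Of all their KC-H peaks, Marchf11 lost 6 of 6, Timd4 16 of 17, Pde10a 13 of 14, Lhfpl3 6 of 7, Ccny 14 of 24, Gse1 18 of 44, Sfi1 20 of 52 and Trib1 8 of 23.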
